A study of Mus musculus with 2 samples.

Results

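Hsp90ab1, Rpl13a, B2m and Ppia are 4 of the 15 protein-coding genes that the array design prints 20 times on each array, among 59709 probes in all. They encode a chaperone, a ribosomal protein, the light chain of MHC class I and a prolyl isomerase, and the array design carries them as repeatedly spotted genes alongside others such as Gapdh and Actb. The 4 genes were chosen by name from these repeatedly spotted genes when their processed signals on both arrays were already known, so the levels and differences below are a description of 2 arrays and carry no test.

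Hsp90ab1 is the constitutive cytosolic form of heat shock protein 90, which holds kinases, steroid receptors and other client proteins in a state that can be activated. Rpl13a is a protein of the large ribosomal subunit. B2m, beta-2-microglobulin, pairs with the heavy chain of MHC class I, and without it most class I molecules do not reach the cell surface to present peptides to cytotoxic T cells. Ppia, cyclophilin A, catalyses the rotation of peptide bonds before proline and is the intracellular receptor of cyclosporin. All are made by nearly every cell type of the lung, and B2m and class I genes are known to be raised by interferon. Genes of this kind are widely used to scale PCR measurements.

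The control array held lung RNA of male BALB/c mice, 8 weeks old, given saline, and the paraquat array held RNA of mice of the same strain, sex and age given 10 mg/kg paraquat into the peritoneum once per day for 5 days. Paraquat is a herbicide that cycles between redox states, generates superoxide and damages the lung epithelium, and the study used it to produce pulmonary fibrosis. The lower lobe of the right lung was taken on day 12, and 3 lungs of a group were mixed before RNA extraction. The series describes 10 mice per group and 70% deaths in the paraquat group. The paper gives a smaller saline group. Whether the mixed paraquat lungs all came from mice alive on that day is not given in the sources used here. There was 1 array per group, so no spread between animals can be given, and the 20 spots of a gene are repeat readings of a single RNA mixture by a single probe. In RNA of whole tissue, fewer cells of a type and less RNA per cell cannot be told apart.

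The control array detected 62.7% of probes well above background, 37410 in number, and the paraquat array 58.6%, or 34942. The median log2 signal was 5.43 and 4.60. Both arrays lay on the same slide. None of 39 marker genes of lung epithelium, endothelium, fibroblasts, blood cells or heart muscle had a name in the files, so the labelled tissue and its cell makeup could not be checked against markers. Likewise, 0 of 24 chaperone and heat shock genes, 0 of 92 ribosomal proteins, 0 of 29 genes of MHC class I antigen presentation and 0 of 14 other cyclophilins could be named, and each of the 4 genes was therefore read without its partners.

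The promoters of these genes are shown to give the sequence context of each start site. A link between these sequences and the signals was not tested. The windows run from 250 bases before to 30 bases after the start site in RefSeq GRCm38.p6, 5′ to 3′ on the strand of the gene. They lie at chr7:45128716-45128995 on the minus strand for Rpl13a, chr2:122147437-122147716 on the plus strand for B2m and chr11:6415617-6415896 on the plus strand for Ppia. Capitals mark matches on either strand to a TATA box, searched as TATAA, to a CCAAT box, searched as those letters, to a GC box, searched as GGGCGG, or to the core of an interferon-stimulated response element, searched as GAAANNGAA. Hsp90ab1 is named only.
Rpl13a: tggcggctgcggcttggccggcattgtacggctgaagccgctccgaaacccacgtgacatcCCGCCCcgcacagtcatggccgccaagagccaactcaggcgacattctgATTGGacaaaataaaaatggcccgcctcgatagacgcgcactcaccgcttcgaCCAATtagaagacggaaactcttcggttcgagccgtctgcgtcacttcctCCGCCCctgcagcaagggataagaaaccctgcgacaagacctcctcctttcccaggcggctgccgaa
B2m: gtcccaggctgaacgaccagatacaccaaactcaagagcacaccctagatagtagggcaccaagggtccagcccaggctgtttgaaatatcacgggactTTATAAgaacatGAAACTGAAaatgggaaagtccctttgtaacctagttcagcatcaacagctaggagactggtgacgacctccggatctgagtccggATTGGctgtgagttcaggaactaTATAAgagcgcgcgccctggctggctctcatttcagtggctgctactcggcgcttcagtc
Ppia: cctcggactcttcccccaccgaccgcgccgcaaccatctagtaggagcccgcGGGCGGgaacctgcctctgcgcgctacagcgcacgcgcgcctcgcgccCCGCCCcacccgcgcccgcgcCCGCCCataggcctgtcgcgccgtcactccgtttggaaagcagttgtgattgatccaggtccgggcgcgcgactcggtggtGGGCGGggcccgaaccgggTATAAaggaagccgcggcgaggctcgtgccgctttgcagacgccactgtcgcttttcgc

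The Rpl13a window held a CCAAT box on its own strand beginning 87 bases before the start site, another on the opposite strand at 140 bases, and GC boxes on the opposite strand at 189 and 37 bases. The B2m window held a TATA box at 30 bases, a further overlapping pair of TATA matches on opposite strands at 151 and 150 bases, a CCAAT box on the opposite strand at 53 bases and the interferon-type core at 139 bases. The Ppia window held a TATA box at 29 bases and GC boxes at 198, 150, 129 and 48 bases. Of the 32851 RefSeq windows of this length, 24.0% held the TATA letters, 36.1% the CCAAT box, 34.7% the GC box and 8.06% the interferon-type core on either strand. Of the 3 genes, B2m alone had the interferon-type core, and Rpl13a alone had no TATA match. A match describes letters in the window and was not measured as a binding site here.

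Hsp90ab1 had the lowest difference of the 4 genes. On the control array its 20 spots gave a processed signal, which is the background-subtracted brightness of a spot, of 13415 at the lowest, 24492 at the median and 29264 at the highest. On the paraquat array the spots gave 4336, 5054 and 5521. No spot of the paraquat array reached the dimmest control spot, which was itself 2.43 times as bright as the brightest paraquat spot. That control spot was marked as an outlier, and over unmarked spots the dimmest control signal was 20367, or 3.69 times the brightest paraquat signal. After quantile normalization the log2 difference of paraquat minus control was -2.01, a 4.03-fold lower level. The log2 ratio between spots at the same grid position, taken before normalization, had an SD of 0.153 (19 spot pairs without an outlier mark). Before normalization the difference was -2.32, or 4.98-fold.

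Rpl13a, the ribosomal protein, had control spots at 2595, 3278 and 3925 and paraquat spots at 707, 807 and 926, again as lowest, median and highest. Its groups of spots did not overlap, with the dimmest control spot 2.80 times the brightest paraquat spot and no spot marked as an outlier. The normalized log2 difference was -1.38, or 2.60-fold lower, with an SD of 0.182 over 20 spot pairs. Normalization moved this gene the most, by 0.62 from -2.00 before it, where the fold was 3.99.

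B2m, the light chain, had control spots at 38294, 55902 and 66337 and paraquat spots at 16533, 19025 and 22568. The ranges did not overlap, with the dimmest control spot 1.70 times the brightest paraquat spot, or 2.27 times over unmarked spots. The normalized log2 difference was -1.43, or 2.70-fold lower, with an SD of 0.190 over the spot pairs. Before normalization it was -1.59, or 3.01-fold. Under a shift of each array to its 75th percentile or on spike-in probes, B2m was -0.67 and -0.90 and no longer reached 2-fold.

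Ppia, the isomerase, had control spots at 67099, 82422 and 96531 and paraquat spots at 59966, 65745 and 74355. Here the arrays overlapped, and the dimmest control spot was 0.902 times the brightest paraquat spot. At the same grid position the paraquat spot was the dimmer one in 20 of 20 pairs, with log2 ratios between -0.51 and -0.003. The Ppia difference before normalization, -0.31, lay above the median of all detected probes without normalization, -0.89. The normalized log2 difference of Ppia was -0.38, or 1.30-fold lower, with an SD of 0.152, and its sign turned under the shift on the 75th percentile (0.61) and under the shift on spike-in probes (0.37). The direction of Ppia between the arrays therefore depended on the scaling.

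**Figure D1:**
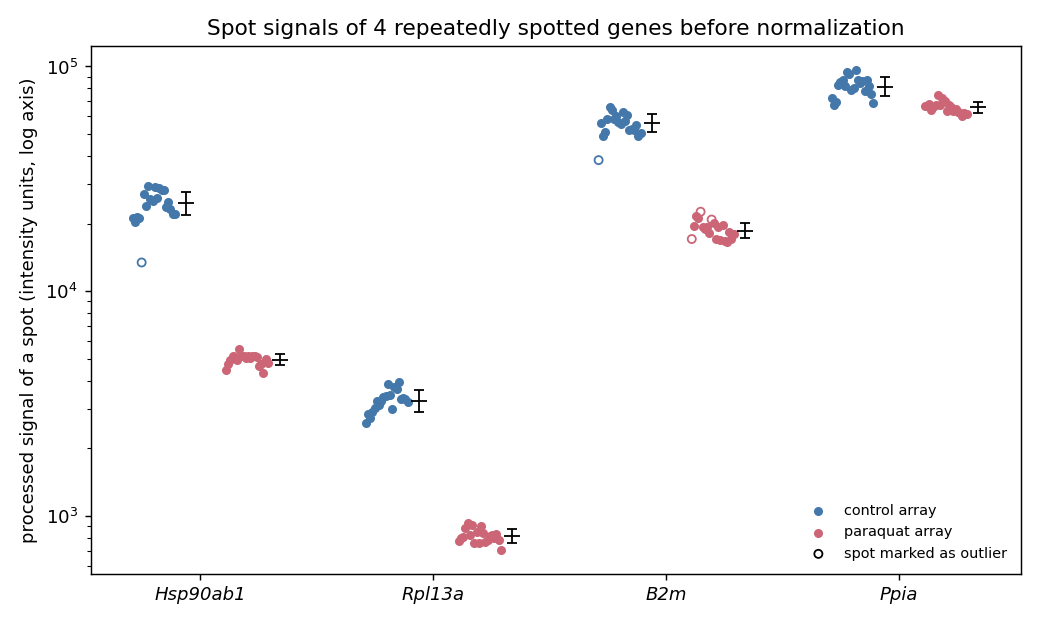
Processed signal of each of the 20 spots of Hsp90ab1, Rpl13a, B2m and Ppia on the control array (blue) and the paraquat array (red), on a log axis and before normalization, with open circles for spots marked as outliers and black bars for the mean ± SD over unmarked spots. The spots of the arrays do not overlap for Hsp90ab1, Rpl13a and B2m and overlap for Ppia, whose direction turns under the 75th percentile and spike-in shifts; levels of different genes are read by different probes and are not comparable.

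In all, 80 of 80 spots of the 4 genes were dimmer on the paraquat array than at the same position of the control array before normalization. A lower signal was common on that array, where the median log2 difference of all detected probes was -0.89 without normalization. In those values 45.4% of detected probes were at least 2-fold lower and 9.13% at least 2-fold higher. Of the other repeatedly spotted genes, Nono and Gusb were also dimmer on the paraquat array in 20 of 20 pairs. Actb, Gapdh, Tfrc and Tuba1b were brighter there in 20 of 20, and the remaining genes had pairs in both directions. No spot of the 4 genes was saturated, and each was well above background, with the lowest spot signal of Rpl13a at 707 against a highest signal of 319 among the 1200 spots of negative probes on the paraquat array. After quantile normalization 3 of the 4 genes were at least 2-fold lower, 0 were at least 2-fold higher and 0 were 5-fold apart. Among the 40078 probes that either array or both detected well above background, 18.9% were at least 2-fold lower and 18.2% at least 2-fold higher, while 4.56% were at least 5-fold lower and 5.54% at least 5-fold higher. The genes were chosen with these values known, so nothing is read from their count against these shares.

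The difference of Hsp90ab1 lay above 6.59% of the detected probes, that of B2m above 11.5%, that of Rpl13a above 12.3% and that of Ppia above 37.9%. The median over the 4 genes was -1.41 on the log2 scale and that over all detected probes was -0.10. Without normalization the median of the detected probes was -0.89, and with the 75th percentile shift it was 0.03, so the scaling alone moved the whole array by more than the difference of Ppia. None of the 4 differences was at the extreme of the array.

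Among the 15 repeatedly spotted genes, the order of the quantile-normalized log2 differences from the lowest was Hsp90ab1, B2m, Rpl13a and Ppia, followed by Nono at -0.33 (SD 0.237 over spot pairs). In these values the remaining genes lay above 0, from Gusb at 0.35 to Ldhal6b at 1.31, the latter with an SD of 1.12, and Gapdh, the glycolytic dehydrogenase, was at 1.20 (SD 0.191). Ldhal6b was near the floor, with 13 of its 20 control spots well above background. Its lowest control signal was 3.86, equal to the median of the negative probes on that array. The median over the 11 other genes was 0.58. Without normalization, and so in the same order under any shift of a whole array, Hsp90ab1, Rpl13a and B2m were again the lowest, but Ppia at -0.31 was in place 7 of 15, above Nono at -0.84, Gusb at -0.36 and Gk at -0.35. The exact place was not resolved, since Gusb, Gk and G6pd2 lay from Ppia by -0.05, -0.04 and 0.02. Their SDs over spot pairs were 0.172, 0.943 and 0.385. Of the 11 other genes 5 were then below 0 and 6 above it, with a median of 0.14. The contrast of the 4 genes with others above 0, Nono excepted, thus held after quantile normalization and not without it. Ppia was in place 4 only after that normalization, where its gap to Nono was within the spread of spots.

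In the quantile-normalized values Nono, a nuclear RNA-binding protein, lay nearest to each of the 4 genes outside their own number, at a gap of 0.06 from Ppia, 1.05 from Rpl13a, 1.11 from B2m and 1.68 from Hsp90ab1. Gusb, a lysosomal glucuronidase, was the next nearest to each, at gaps of 0.73 from Ppia and 2.36 from Hsp90ab1. The gap between Ppia and Nono was within the spread of their spots after quantile normalization, but without it Nono lay lower than Ppia, at a gap of -0.53, which is wider than the SD of either gene. Without normalization Gusb, Gk and G6pd2 lay nearest to Ppia. In processed signals before normalization, spot ranges did not overlap between the arrays in 3 of the 4 genes and in 4 of the 11 others. Of these others, Nono was lower on the paraquat array, and Actb, Gapdh and Tuba1b were higher. The dimmest control spot of Nono was only 1.18 times as bright as its brightest paraquat spot. Whether these ranges stay apart under other scalings was not tested.

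**Figure D2:**
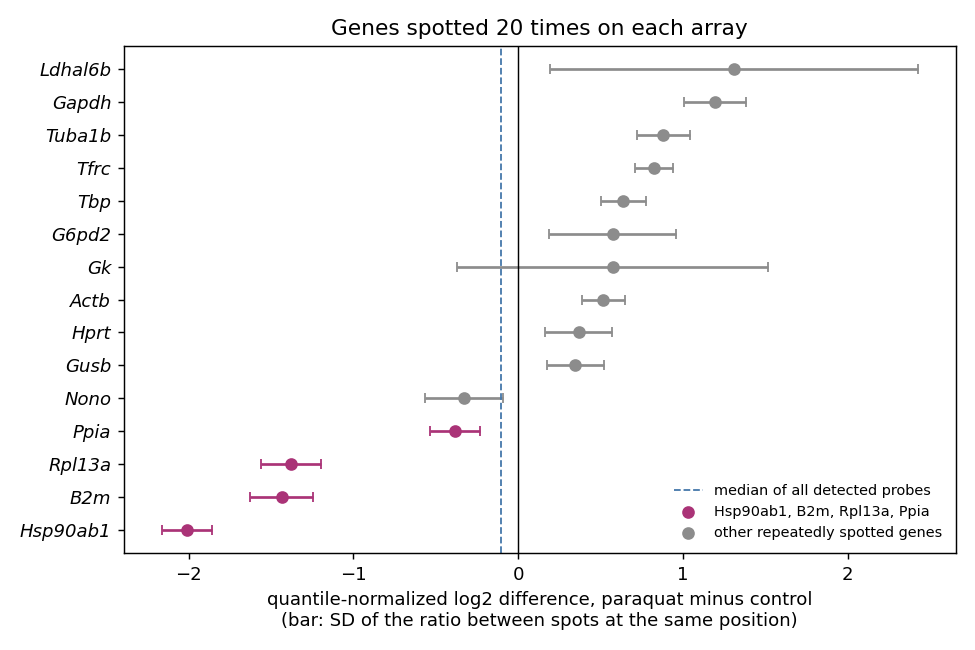
Quantile-normalized log2 difference (paraquat minus control) of the 15 genes printed 20 times on each array, in order, with bars for the SD of the log2 ratio over spot pairs before normalization. The dashed line is the median of all detected probes at -0.10. Hsp90ab1, B2m, Rpl13a and Ppia (purple) are the lowest after this normalization, from -2.01 to -0.38. The gap of Ppia to Nono, the next gene, is 0.06 and within the spread of spots. Without normalization Ppia is in place 7 of 15, above Nono and, by gaps within the spread of spots, above Gusb and Gk. It turns above 0 under the 75th percentile and spike-in shifts.

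The 4 genes did not move by equal amounts. Their normalized differences spanned 1.63 on the log2 scale from Hsp90ab1 to Ppia, and 2.01 without normalization or under any shift of a whole array, which leaves gaps between genes as they were measured. The gap between Hsp90ab1 and Ppia exceeded the spread of single spots, whose SD for such a gap was 0.216. This SD combines those of the ratios of both genes before normalization, taken as independent. The gap of Rpl13a to Ppia was -0.99 and that of B2m to Ppia -1.05, against SDs of 0.237 and 0.244.

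Among the larger differences the order was less settled. In the normalized values the gap of Hsp90ab1 to B2m was -0.58 (SD 0.244) and that to Rpl13a -0.63 (SD 0.238). Before normalization the gap to Rpl13a was -0.32 and that to B2m -0.73. The gap of B2m to Rpl13a was -0.06 after normalization, within the spread of spots (SD 0.263), and in the opposite order before it, with Rpl13a lower by 0.41. The order of these genes below Ppia was Hsp90ab1 first under every scaling tried, with Rpl13a and B2m changing places.

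The spots of the 4 genes also varied with their place on the array, which has 384 rows and 164 columns. Over the unmarked control spots the log2 signal had an SD of 0.173 for Hsp90ab1, 0.162 for Rpl13a, 0.147 for Ppia and 0.130 for B2m. On the paraquat array it was lower for each gene, at 0.0823, 0.0997, 0.0800 and 0.115. The control array thus gave the wider spread for each gene, with a median SD over the 4 genes of 0.154 against 0.0910.

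The image software had applied a multiplicative trend correction to the paraquat array and none to the control array. Over the 80 spots of the 4 genes this factor ran from 0.880 to 1.41 with a median of 0.972. Before this correction the paraquat SDs were 0.126 for Hsp90ab1, 0.0975 for Rpl13a, 0.103 for B2m and 0.103 for Ppia, so they were below the control SDs before it as well. The correction narrowed the spread of Hsp90ab1 and Ppia and widened that of Rpl13a and B2m.

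Within 25 columns of the left or right edge, 17 of 20 unmarked control spots of the 4 genes were dimmer than the mean of their gene, by -0.17 ± 0.0969 on the log2 scale (mean deviation, SD over spots), against 18 of the 58 spots elsewhere. On the paraquat array the edge spots deviated by -0.11 before the multiplicative correction and by -0.04 after it. Hsp90ab1 at column 21 of row 2 was the dimmest control spot of its gene at 13415, a log2 deviation of -0.88 from the mean of the gene, and was marked as an outlier. The dimmest control spot of B2m, at column 2 of row 28, lay -0.55 from the mean of its gene and was marked too. On the paraquat array the correction multiplied the same positions by 1.41 and 1.22, and their log2 ratios went from -1.90 to -1.40 for Hsp90ab1 and from -1.45 to -1.17 for B2m. These were the ratios nearest to 0 of both genes.

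**Figure D3:**
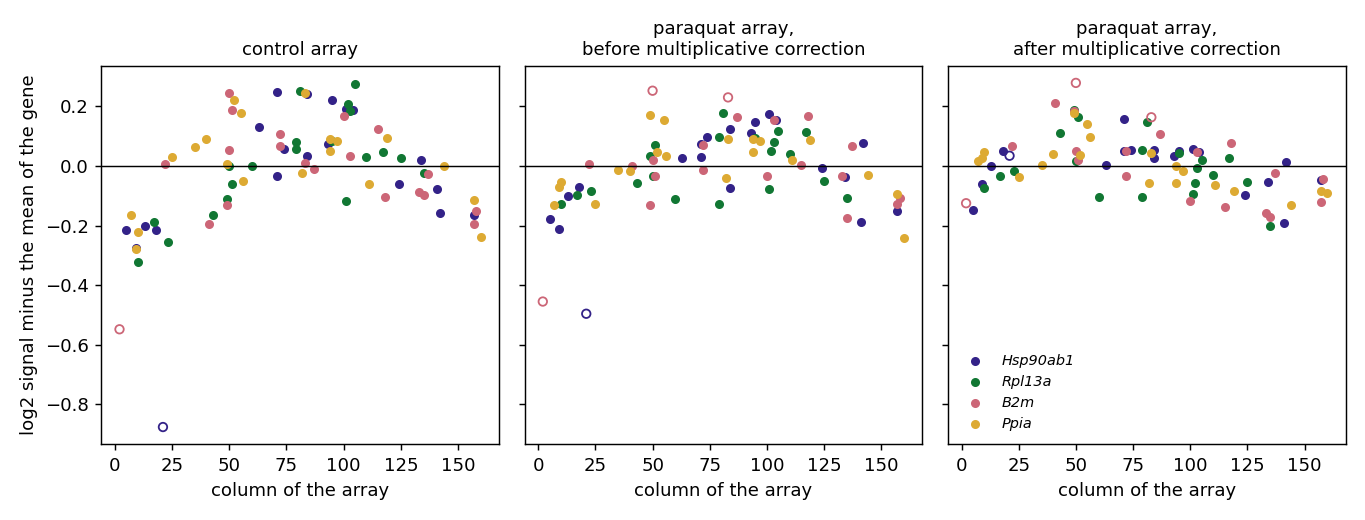
Log2 processed signal of each spot minus the mean of its gene against the column of the array, for the control array and for the paraquat array before and after the multiplicative correction; open circles are spots marked as outliers. Spots at low and high columns lie below those in the middle in the control panel and in the uncorrected paraquat panel, and the Hsp90ab1 spot at column 21 deviates by -0.88 in the control panel and lies close to its mean in the corrected one.

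The position entered the ratio between the arrays. In columns 1 to 64 the mean log2 ratio before normalization was -2.19 for Hsp90ab1, -1.83 for Rpl13a, -1.51 for B2m and -0.24 for Ppia. In the columns above 80 it was -2.37, -2.11, -1.61 and -0.38. In these signals, taken after the multiplicative correction, each gene was less low on the left of the array than on the right. Before that correction the left and right ratios were -2.24 and -2.30 for Hsp90ab1, -1.86 and -2.00 for Rpl13a and -0.29 and -0.31 for Ppia, and for B2m the sides changed places, at -1.60 and -1.50. The difference between sides before correction was within the SD of the ratios on either side for Hsp90ab1, B2m and Ppia. The shift was widest for Rpl13a in both, whose corrected log2 signal on the left minus that on the right came to -0.23 among control spots and 0.05 among paraquat spots. For Hsp90ab1 the same measure was -0.20 and -0.02. For all 4 genes the side of the array moved the ratio by less than the distance of Hsp90ab1, Rpl13a and B2m from 0, and each of the 20 pairs of each gene stayed below 0 on both sides. The log2 signals of the arrays were also correlated over the positions of a gene without an outlier mark on either array. The Pearson correlation was 0.466 for Hsp90ab1 (19 positions), 0.208 for Ppia (20), 0.0916 for Rpl13a (20) and -0.13 for B2m (17). It is given as a description, since the positions share the slide and the trend correction.

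**Figure D4:**
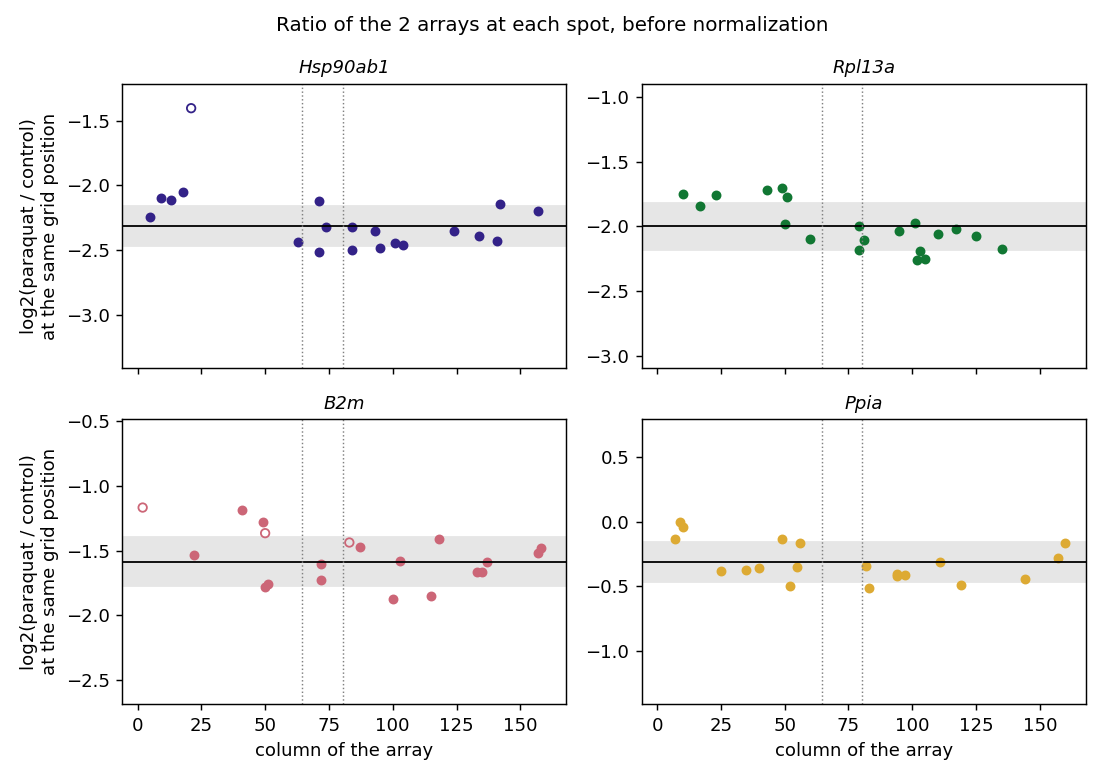
Log2 ratio of paraquat to control signal at the same grid position against the column of the array, before normalization, with a line at the mean over unmarked spots, a grey band of ± 1 SD, open circles for spots marked as outliers on either array, and dotted lines at the borders of the column ranges compared. All 80 ratios lie below 0, as does the median of all detected probes without normalization (-0.89). The ratios in columns 1 to 64 are nearer to 0 on average for each gene, which for B2m is not so before the multiplicative correction. Ppia lies above 0 once the arrays are shifted on the 75th percentile or spike-in probes.

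The choice of reference set the size of each difference. Scaled on Gapdh, which was itself at 1.20, Hsp90ab1 was at -3.52, Rpl13a at -3.20, B2m at -2.80 and Ppia at -1.52, and 4 of 4 genes were at least 2-fold lower. Scaled on the 11 other repeatedly spotted genes together, they were at -2.46, -2.14, -1.73 and -0.45. Scaled on the 75th percentile they were at -1.39, -1.07, -0.67 and 0.61. Hsp90ab1, Rpl13a and B2m lay below 0 under each of 16 alternatives, and Ppia under 14 of them. Many of these alternatives kept quantile normalization and changed only the spots or the background, so they largely repeat the main value. The 2 with Ppia above 0 were shifts of a whole array.

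**Figure D5:**
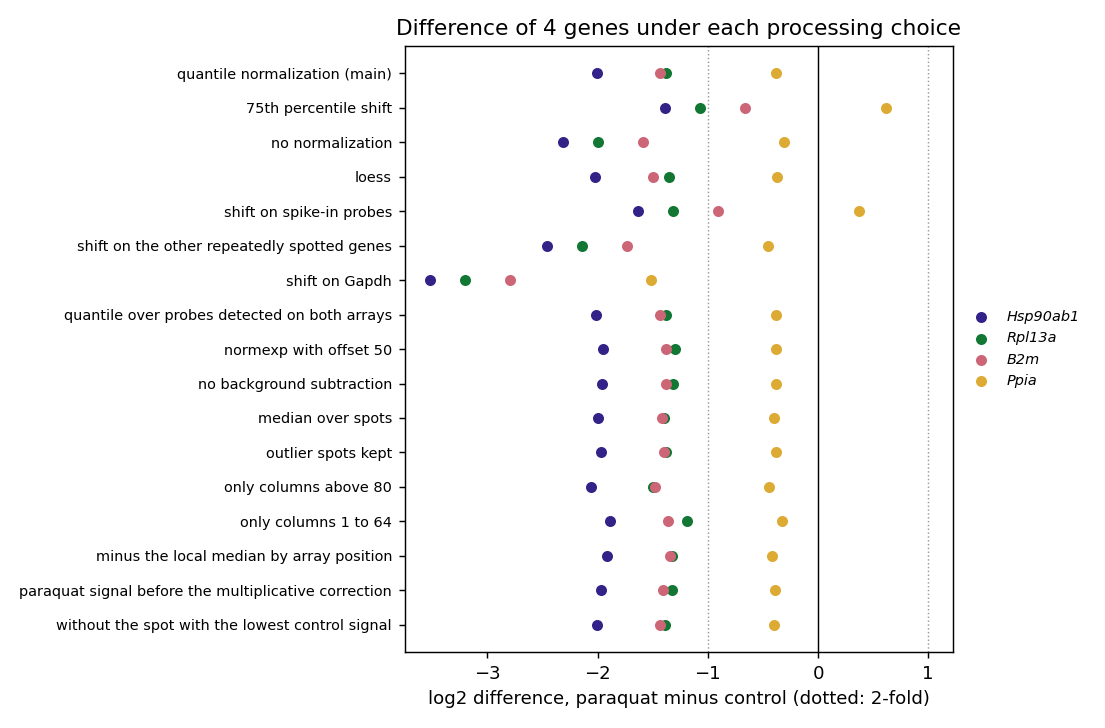
Log2 difference (paraquat minus control) of Hsp90ab1, Rpl13a, B2m and Ppia under the main quantile normalization (top) and 16 alternatives, with dotted lines at 2-fold. Hsp90ab1 is the lowest under every setting and stays below -1, B2m lies above -1 under the 75th percentile and spike-in shifts, and Ppia turns above 0 under the same settings.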

How the data were processed

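Lung RNA of 1 control and 1 paraquat sample was labelled with Cy3 after random priming and hybridized to 1-colour Agilent lncRNA arrays whose design was annotated on mm9. The authors deposited Feature Extraction 10.7.3.1 output for each array, in which the processed signal is a linear intensity, background-subtracted and not normalized between arrays. The multiplicative trend correction was applied on the paraquat array only. The authors also deposited normalized values of 14331 probes on a log2 scale, which hold 0 of the 4 genes and were not used for them. The outlier, saturation and background marks are those deposited with the spots. The paper and the file headers name different scanner models.

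Processed signals were log2-transformed without outlier-marked spots and negative probes, averaged per probe and quantile-normalized over 59625 probes, as the methods of the study name. Differences are given as paraquat minus control. An SD is over spots and covers technical spread on these arrays only. The SD of a ratio or of a gap was taken before normalization, also where it stands beside a normalized difference. With 1 array per group, the number of arrays limits precision, and no test was run. The probe names include 123 RefSeq accessions, of which 116 were found in the GRCm38.p6 RefSeq table, for 112 symbols. The files used here hold no probe sequences, so reads of related genes and pseudogenes by a probe were not examined.

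The 4 genes and all lists were chosen with earlier results of these data known. Named are the 4 genes, the 2 other repeatedly spotted genes nearest to each in log2 difference, Gapdh, and any gene of the lists with a name. Ldhal6b, Actb, Tuba1b, Tfrc, Gk and G6pd2 fall outside this rule and were chosen after their values were seen. Of 16 alternatives, 2 were added after the values were seen (the paraquat signal before the multiplicative correction, and leaving out the dimmest control spot). For the spike-in shift, 3 of 10 spike-in probes were bright enough, with median control signals between 30.6 and 77.5, far below those of the 4 genes. The normalization was tested on simulated data in which a small set of bright probes changed by a fixed amount. On these arrays 18.9% of detected probes were at least 2-fold lower and 18.2% at least 2-fold higher. The simulation therefore cannot tell how the normalization performs with such shares. Computations used R 4.3.3 (limma 3.58.1) and Python 3.11.15 (matplotlib 3.10.9, scipy 1.17.1, pandas 2.3.3, numpy 2.4.6).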

Additional observations from a re-analysis of the deposited data

How the results depend on the processing

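Under the 75th percentile shift the log2 differences were -1.39 for Hsp90ab1, -1.07 for Rpl13a, -0.67 for B2m and 0.61 for Ppia, and under the spike-in shift they were -1.63 for Hsp90ab1, -0.90 for B2m and 0.37 for Ppia, so Ppia turned above 0 in both and 2 genes in place of 3 were at least 2-fold lower. Without normalization Hsp90ab1 was at -2.32 and Rpl13a at -2.00. On the other repeatedly spotted genes as a reference the values were -2.46 for Hsp90ab1, -2.14 for Rpl13a and -1.73 for B2m, and on Gapdh they were -3.52, -3.20, -2.80 and -1.52 for Hsp90ab1, Rpl13a, B2m and Ppia, with 4 genes at least 2-fold lower. The range over the 4 genes was 1.63 after quantile normalization and 2.01 under each of these settings. From columns 1 to 64 alone Rpl13a was at -1.19. The cause of these shifts was not tested. The alternatives within 1 SD over spots numbered 11 of 16 for Hsp90ab1 and for Rpl13a, 12 for B2m and 13 for Ppia. Many of these alternatives kept quantile normalization. The share of detected probes at least 2-fold lower was 18.9% after quantile normalization, 45.4% without normalization, 6.68% with normexp and 8.14% without background subtraction, and the share at least 2-fold higher was 18.2%, 9.13%, 7.52% and 9.22%. No array could be left out and no paired analysis was possible because each group had 1 array, so the spread between animals, slides or labellings was not measured. The spots of the 4 genes were well above background and had no saturation mark on either array; whether their response was linear at these signals was not tested.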
